A study of Homo sapiens with 4 samples.

Results

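The mitochondrial ribosomal protein (MRP) genes were taken as the genes whose symbol is MRPL or MRPS followed by a number, which gave 78 of the 16878 genes measured. RNA-seq was run on PANC-1, an established line of human pancreatic carcinoma cells, 48 h after transfection with small interfering RNA against SIRT1 (siSIRT1, n = 2) or with a control (Control, n = 2). SIRT1 is an NAD-dependent protein deacetylase, and the comparison addresses which transcripts depend on it in these cells. The knockdown was transient and was made in a single cell line. Nothing in the labels says whether the libraries of a group came from separate cultures, so the p-values measure the spread between these libraries, which may be technical.

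Mitochondria carry their own ribosome, which translates the few respiratory chain and ATP synthase subunits still encoded by mitochondrial DNA. Its RNA is transcribed inside the organelle, whereas its proteins are encoded in the nucleus, made in the cytosol and imported. The large subunit, whose proteins mostly carry MRPL symbols, forms peptide bonds, and the small subunit, whose proteins mostly carry MRPS symbols, reads the messenger RNA. Some of the proteins descend from bacterial ribosomal proteins and others are found only in mitochondria. Loss of several of them in humans causes inherited deficiency of oxidative phosphorylation.

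Levels are FPKM, a fragment count divided by transcript length and by the library total, and a log2 fold change compares log2(FPKM + 1) in siSIRT1 with Control. The summed FPKM over all genes ran from 397094 to 426279 per library, and was higher in both siSIRT1 libraries than in both Control libraries. Depth was estimated, approximately, from the steps between low values as 8850000 to 9290000 reads, which puts about 36 to 1794 reads, with a median of 312, behind an MRP gene in a library. SIRT1 itself measured 10.46 and 10.25 FPKM in the Controls and 1.80 and 2.05 FPKM after knockdown, a log2 fold change of -1.96 ± 0.11 (SE). All 5 ductal epithelial markers had a value, with summed levels of 4026 to 5096 FPKM, of which KRT8 and KRT18 were most and KRT7 was at 2.89 to 4.04 FPKM. KRT18 and KRT19 rose, and SOX9 fell, from 63.69 and 61.01 FPKM in the Controls to 40.20 and 41.57 FPKM after knockdown (log2 fold change -0.60, adjusted p = 0.00021). The summed acinar, endothelial and stromal markers stayed at or below 0.75 FPKM in every library. Of the blood markers, CD68 was at 62.96 and 60.77 FPKM in the Controls and 42.34 and 39.09 FPKM after knockdown, and PTPRC was at 0.97 to 1.29 FPKM, and their part in the results was not tested.

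More MRP genes rose than fell after SIRT1 knockdown. All 78 genes passed the filter of a mean of 1 FPKM, and 36 rose, 2 fell and 40 did not pass an adjusted p of 0.05 (limma, Benjamini-Hochberg over 12191 genes). Over all genes tested, 24.0% were called higher and 13.1% lower. The median log2 fold change of the MRP genes was 0.22, beside 0.07 for all genes, and the single genes ran from -0.34 to 0.72. In 58 of the 78 genes both siSIRT1 libraries lay above both Control libraries, and in 6 both lay below, where all genes tested gave 43.8% and 25.2%. The 6 were MRPL19, MRPL57, MRPS10, MRPS16, MRPS18B and MRPS31. The changes were small: 33 genes differed by more than 1.2-fold upward, 7 of them by more than 1.5-fold, and 2 by more than 1.2-fold downward. These fold cutoffs were not counted over all genes. The typical spread between libraries of a group was also small, with a median SD of 4.93% of the mean in Control and 5.52% in siSIRT1.

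The number of calls depended on the scaling, the filter on low values, the mean-variance trend and which libraries were kept. With median-of-ratios scaling 22 MRP genes rose and 2 fell, and the median log2 fold change was 0.14. Of all genes 16.7% were called higher and 16.7% lower there. With no filter on low values 27 rose and 0 fell, against 13.7% and 7.8% of all genes. Without the mean-variance trend 26 rose and 2 fell, against 20.9% and 11.9% of all genes. Without Control-2, 20 rose and 0 fell, with 14.3% of all genes called higher. In each of the 17 alternative fits the median of the MRP genes stayed above 0, from 0.14 to 0.26. The median of all genes also stayed above 0 in each, from 0.0016 to 0.091, and was below that of the MRP genes. Of the MRP genes 59 were higher in every fit and 6 were lower in every fit. Neither these numbers nor the number called in every fit was counted over all genes. The 16 genes called in every fit all rose: MRPL1, MRPL4, MRPL11, MRPL14, MRPL23, MRPL27, MRPL32, MRPL36, MRPL41, MRPL48, MRPS11, MRPS12, MRPS18C, MRPS22, MRPS26 and MRPS35.

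**Figure D1:**
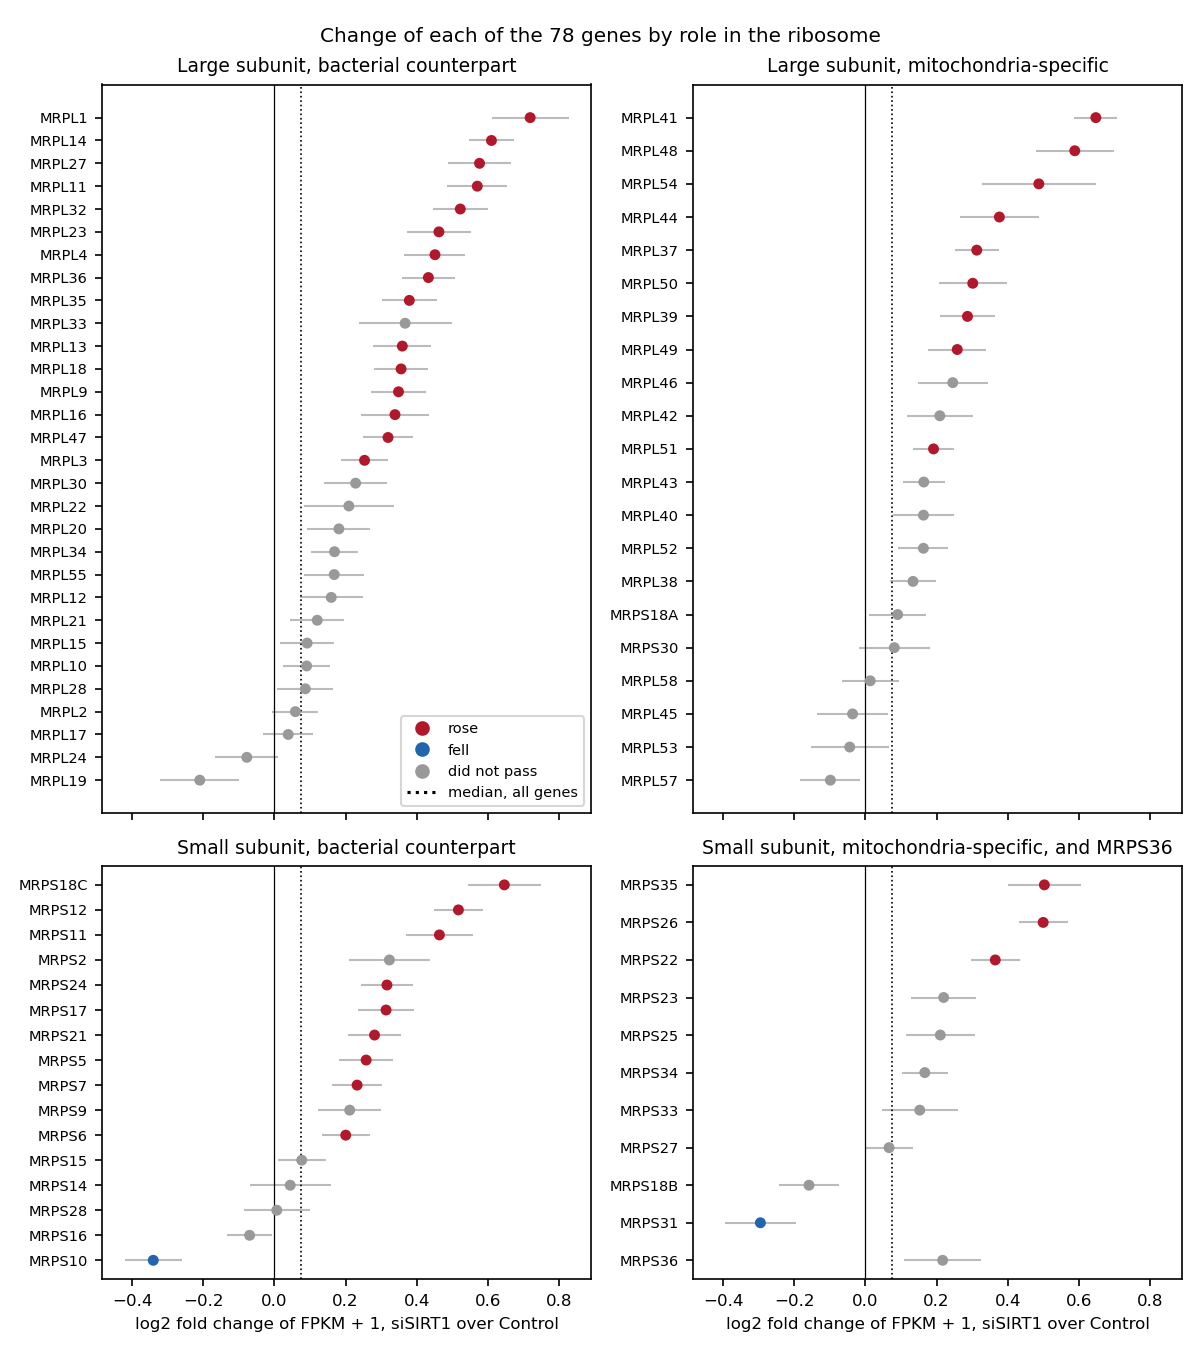
Log2 fold change (x axis, siSIRT1 over Control, on FPKM + 1) of each of the 78 genes, in 4 panels by role, with bars of 1 SE and colours for genes that rose, fell or did not pass an adjusted p of 0.05. The dotted line is the median of all genes, 0.07, and most points lie to its right, from MRPS10 at -0.34 to MRPL1 at 0.72.

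Added together, the MRP genes held 2448 and 2398 FPKM in the Controls and 2999 and 2793 FPKM after knockdown, an increase of 19.5% in the mean. Their share of all FPKM was 0.609% and 0.604% in the Controls and 0.704% and 0.684% after knockdown. The groups did not overlap for either measure, and the exact two-sided permutation test gave p = 0.333 for both, the smallest that 2 libraries against 2 can give. A level in FPKM is a share of the library, so more MRP RNA per cell and less of other RNA cannot be told apart.

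The summed FPKM of both subunits was higher by nearly the same percentage, 19.9% for the large and 19.0% for the small. The median log2 fold changes of their genes were 0.23 and 0.22. The small-subunit sum leaned on MRPS12, which gave 67.9 of its 173.9 FPKM increase in the mean. The large-subunit genes summed to 1517 and 1485 FPKM in the Controls and 1863 and 1735 FPKM after knockdown, and the small-subunit genes to 926 and 907 FPKM and to 1130 and 1051 FPKM. The ratio of large to small was 1.638 and 1.637 in the Controls and 1.648 and 1.651 after knockdown, a difference of 0.012 (exact two-sided permutation test, p = 0.333, the smallest possible). This ratio does not depend on the scaling between libraries, but MRPS12 weighs on it, and it was not computed without that gene. siSIRT1-1 was above siSIRT1-2 in 54 of the 78 genes, and in 26 of the 36 that rose, and it also had the larger FPKM sum over all genes. The order of the genes by level was largely kept, with a Spearman rho of 0.976 between the group means, across genes that are not independent replicates. From the lowest to the highest gene the Control mean spanned 32.9-fold.

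**Figure D2:**
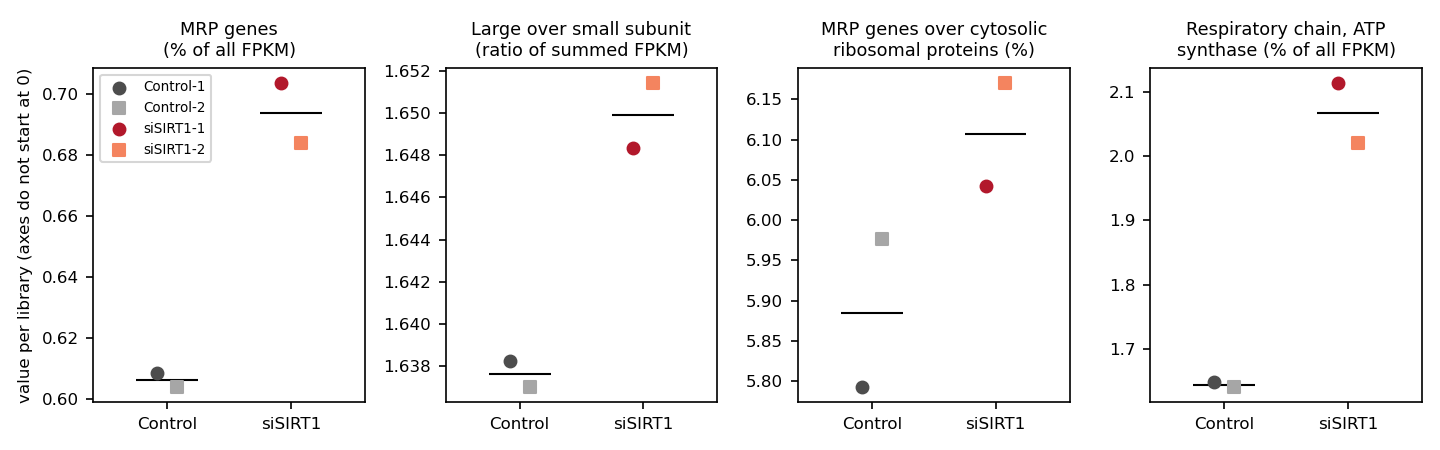
Values per library (points) and group means (lines) of the MRP share of all FPKM, the large over small subunit ratio of summed FPKM, the MRP sum as a percentage of the cytosolic ribosomal protein sum, and the share of all FPKM in respiratory chain and ATP synthase genes. In each panel both siSIRT1 points lie above both Control points, and the y axes do not start at 0, so that the ratio panel spans only 1.637 to 1.651.

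Among the 30 large-subunit proteins with a bacterial counterpart, 15 rose, 0 fell and 15 did not pass, with a median log2 fold change of 0.29. MRPL1 carries the L1 stalk, a mobile arm of the ribosome beside the exit of spent transfer RNA, and it was the lowest of all MRP genes in Control. It was at 5.02 and 4.45 FPKM in the Controls and 8.20 and 8.66 FPKM after knockdown. Its log2 fold change of 0.72 ± 0.11 (SE, adjusted p = 0.0013) was the highest of the family, and about 44 to 85 reads lay behind each value. MRPL14, which lies at the interface of the subunits, was at 31.62 and 31.30 FPKM in the Controls and 49.87 and 47.25 FPKM after knockdown, a log2 fold change of 0.61 ± 0.06 (SE, adjusted p = 0.00023). MRPL27 belongs to the region around the peptidyl transferase centre and had 25.16 and 22.90 FPKM in the Controls and 39.22 and 33.57 FPKM after knockdown. MRPL11, at the base of the stalk that recruits elongation factors, had 30.86 and 27.32 FPKM in the Controls and 46.09 and 41.24 FPKM after knockdown. MRPL32 is matured by the mitochondrial m-AAA protease before it is built in, and had 22.49 and 25.54 FPKM in the Controls and 34.96 and 34.77 FPKM after knockdown. The log2 fold changes of MRPL27, MRPL11 and MRPL32 were 0.58, 0.57 and 0.52, with adjusted p of 0.0015, 0.0011 and 0.0012.

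Not every protein of the same stalk or centre passed the test. MRPL12, the stalk protein that binds next to MRPL11, was at 65.36 and 53.82 FPKM in the Controls and 67.58 and 65.19 FPKM after knockdown, and the groups overlapped (log2 fold change 0.16, adjusted p = 0.19). MRPL3 had 43.15 and 46.04 FPKM in the Controls and 51.85 and 54.83 FPKM after knockdown and rose by 0.25 on the log2 scale (adjusted p = 0.017). MRPL22, which lines the exit tunnel, was among the 4 lowest genes, at 7.08 and 7.63 FPKM in the Controls and 9.85 and 7.59 FPKM after knockdown. Its groups overlapped through siSIRT1-2, which lay below Control-2 (adjusted p = 0.23). The 15 that rose were MRPL1, MRPL3, MRPL4, MRPL9, MRPL11, MRPL13, MRPL14, MRPL16, MRPL18, MRPL23, MRPL27, MRPL32, MRPL35, MRPL36 and MRPL47, and those not described above ran from a log2 fold change of 0.32 for MRPL47 to 0.46 for MRPL23. Those that did not pass ran from -0.21 for MRPL19 to 0.37 for MRPL33. MRPL3 lost its call in 7 of the 17 alternative fits, among them without Control-1 and without Control-2.

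**Figure D3:**
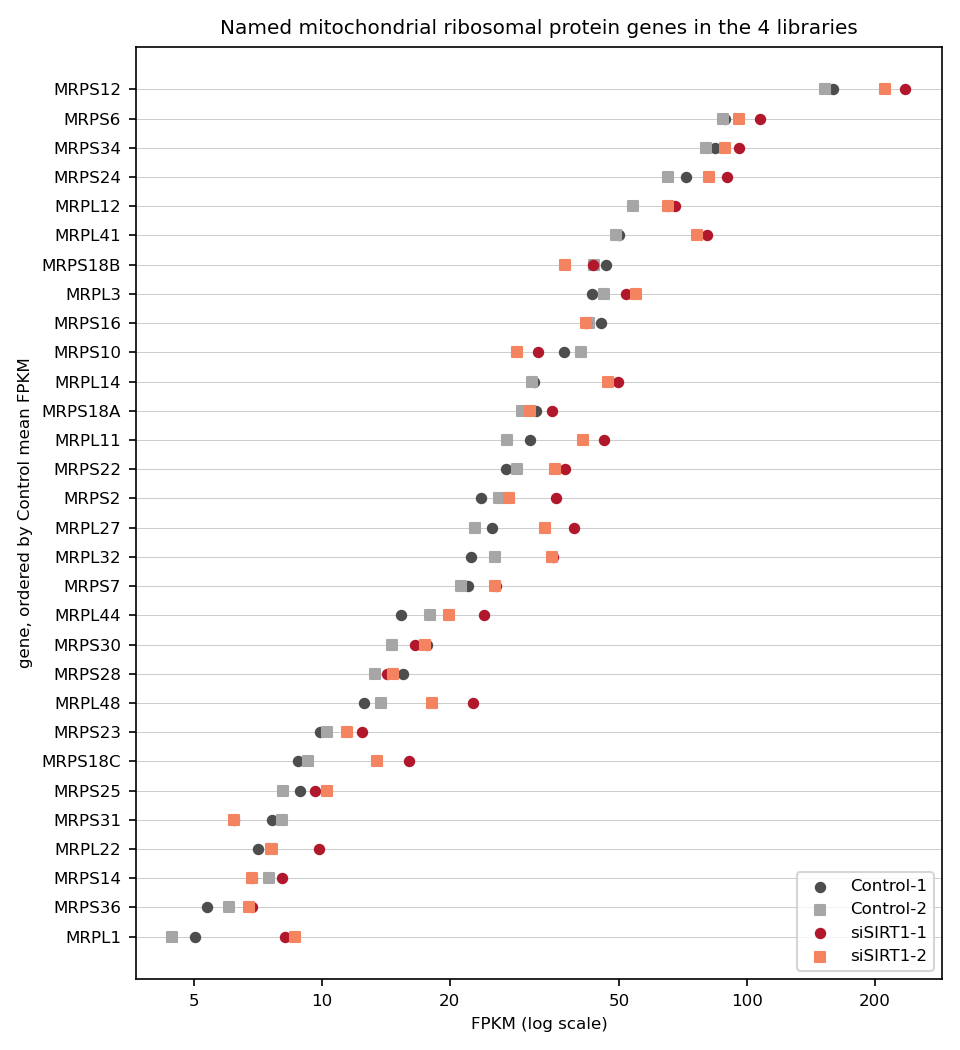
FPKM (x axis, log scale) of the named MRP genes in each of the 4 libraries, ordered by Control mean. The siSIRT1 points lie to the right of the Control points for most genes, from MRPS12 at the top to MRPL1 at the bottom. They lie to the left for MRPS10, MRPS16, MRPS18B and MRPS31, of which only MRPS10 and MRPS31 were called lower.

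Among the 21 large-subunit proteins particular to mitochondria, 9 rose, 0 fell and 12 did not pass, with a median log2 fold change of 0.19. MRPL41 was at 50.06 and 49.32 FPKM in the Controls and 80.66 and 76.22 FPKM after knockdown (log2 fold change 0.65 ± 0.06, SE, adjusted p = 0.00013). It moved from rank 14 to rank 6 of the 78 genes by level. MRPL48, a protein of the central protuberance, had 12.57 and 13.81 FPKM in the Controls and 22.69 and 18.18 FPKM after knockdown (log2 fold change 0.59, adjusted p = 0.0037). Both siSIRT1 libraries were above both Control libraries for these genes. MRPL44, a protein with an RNase III-like fold, was at 15.33 and 18.01 FPKM in the Controls and 24.08 and 19.86 FPKM after knockdown and rose by 0.38 on the log2 scale (adjusted p = 0.027), a call lost in 7 of the 17 alternative fits, among them without Control-1 and without siSIRT1-1. The other members that rose were MRPL37, MRPL39, MRPL49, MRPL50, MRPL51 and MRPL54, with log2 fold changes from 0.19 for MRPL51 to 0.49 for MRPL54. Those that did not pass ran from -0.10 for MRPL57 to 0.25 for MRPL46. With median-of-ratios scaling 3 of the 21 rose (14.3%), below the 16.7% of all genes called higher there. Of the 30 with a bacterial counterpart 13 rose (43.3%) with that scaling, and the difference between these shares was not tested.

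The large subunit of mitochondria also holds MRPS30 and MRPS18A, whose symbols name the small subunit. MRPS30 had 17.65 and 14.61 FPKM in the Controls and 16.59 and 17.52 FPKM after knockdown, and MRPS18A had 31.94 and 29.60 FPKM in the Controls and 34.78 and 30.94 FPKM after knockdown. The groups overlapped for both, with log2 fold changes of 0.08 and 0.09. MRPS18A is 1 of 3 paralogs of the bacterial S18 protein in human cells, which sit at different places in the ribosome. The paralog MRPS18C, in the small subunit at the S18 site, had 8.79 and 9.28 FPKM in the Controls and 15.99 and 13.51 FPKM after knockdown (log2 fold change 0.65 ± 0.10, SE, adjusted p = 0.0016). The paralog MRPS18B, also in the small subunit, had 46.56 and 43.67 FPKM in the Controls and 43.52 and 37.30 FPKM after knockdown, a log2 fold change of -0.16 that did not pass (adjusted p = 0.17). MRPS18B passed as lower in 6 of the 17 alternative fits, and the differences between the changes of the paralogs were not tested. The exons of MRPS18C overlap those of ABRAXAS1 on the other strand, and the sources used here do not say whether counting used strand.

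Among the 16 small-subunit proteins with a bacterial counterpart, 9 rose, 1 fell and 6 did not pass, with a median log2 fold change of 0.25. With median-of-ratios scaling 3 of the 16 rose and 1 fell, near the share of all genes called higher there, and without Control-2 3 rose and 0 fell. MRPS12, which lines the decoding centre, had the highest level of the family, at 159.35 and 152.44 FPKM in the Controls and 236.01 and 211.62 FPKM after knockdown. The change (log2 fold change 0.52 ± 0.07, SE, adjusted p = 0.00069) took it to 7.87% of all MRP FPKM in siSIRT1-1 and 7.58% in siSIRT1-2, from 6.51% and 6.36% in the Control libraries. The next in level was MRPS6, with 88.66 and 87.71 FPKM in the Controls and 107.17 and 96.08 FPKM after knockdown, a small rise (log2 fold change 0.20, adjusted p = 0.046). Its call was lost in 11 of the 17 alternative fits, and its exons overlap those of SLC5A3 on the same strand. MRPS24 had 71.83 and 65.27 FPKM in the Controls and 89.57 and 81.61 FPKM after knockdown and rose by 0.32 (adjusted p = 0.0096). The call of MRPS24 was lost without Control-2, with median-of-ratios scaling and with no filter on low values, and the gene shares exons with the read-through gene URGCP-MRPS24. The other members that rose were MRPS5, MRPS7, MRPS11, MRPS17 and MRPS21, with log2 fold changes from 0.23 for MRPS7 to 0.46 for MRPS11.

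MRPS10 was 1 of only 2 MRP genes that fell. This protein of the head of the small subunit was at 37.09 and 40.77 FPKM in the Controls and 32.32 and 28.78 FPKM after knockdown, a log2 fold change of -0.34 ± 0.08 (SE, adjusted p = 0.011). It went from rank 22 to rank 39 in level. The call was lost without Control-2, where the log2 fold change was -0.27, and with no filter on low values. MRPS14, a protein of the small-subunit head and among the 4 lowest genes, had 6.83 and 7.51 FPKM in the Controls and 8.05 and 6.83 FPKM after knockdown. MRPS28, the counterpart of bacterial S1, had 15.52 and 13.35 FPKM in the Controls and 14.25 and 14.69 FPKM after knockdown. For both the groups overlapped, and the sign of the log2 fold change turned with the scaling.

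Among the 10 small-subunit proteins particular to mitochondria, 3 rose, 1 fell and 6 did not pass, with a median log2 fold change of 0.19. The 3 that rose were MRPS22, MRPS26 and MRPS35, with log2 fold changes of 0.36, 0.50 and 0.50, and all of them were called in every fit. MRPS22 had 27.17 and 28.82 FPKM in the Controls and 37.39 and 35.29 FPKM after knockdown (log2 fold change 0.36 ± 0.07, SE, adjusted p = 0.0041). MRPS31 had the lowest level of the 78 genes in siSIRT1-2 but not in siSIRT1-1, where the lowest was 5.95 FPKM. It fell from 7.63 and 8.07 FPKM in Control to 6.21 FPKM in both siSIRT1 libraries (log2 fold change -0.30 ± 0.10, SE, adjusted p = 0.048). This call was lost when any 1 of the 4 libraries was left out, and in 7 of the 17 alternative fits in all. MRPS34, the third highest gene, had 84.13 and 80.33 FPKM in the Controls and 96.08 and 88.89 FPKM after knockdown, without overlap but above the threshold (log2 fold change 0.17, adjusted p = 0.071).

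MRPS36 carries an MRP symbol but is known as a subunit of the 2-oxoglutarate dehydrogenase complex and not of the ribosome. It had 5.38 and 6.04 FPKM in the Controls and 6.84 and 6.74 FPKM after knockdown, which did not overlap and did not pass (log2 fold change 0.22, adjusted p = 0.15). Leaving it out changed the difference in summed FPKM from 473.1 to 472.0.

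A list of 12 MRP genes linked to inherited deficiency of oxidative phosphorylation was used, and it may not be complete. Of these 12 genes 4 rose (MRPL3, MRPL44, MRPS7 and MRPS22) and 8 did not pass, with a median log2 fold change of 0.22. The share that rose was 33.3%, beside 24.0% of all genes tested and 46.2% of the MRP genes. MRPS7, which organises the head of the small subunit, had 22.11 and 21.21 FPKM in the Controls and 25.69 and 25.54 FPKM after knockdown (log2 fold change 0.23, adjusted p = 0.030). MRPS2 had 23.68 and 26.13 FPKM in the Controls and 35.62 and 27.62 FPKM after knockdown, with the siSIRT1 libraries far apart (adjusted p = 0.053). MRPS16 was nearly level, at 45.44 and 42.63 FPKM in the Controls and 41.85 and 41.92 FPKM after knockdown. MRPS23, at 9.92 and 10.28 FPKM in the Controls and 12.43 and 11.44 FPKM after knockdown, and MRPS25, at 8.88 and 8.09 FPKM in the Controls and 9.64 and 10.30 FPKM after knockdown, were both higher without overlap and did not pass (adjusted p = 0.089 and 0.13). The call of MRPS7 was lost in 10 of the 17 alternative fits, among them without Control-1, without Control-2 and without siSIRT1-1.

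Other proteins of the mitochondrial ribosome carry names outside the MRP series. Of 5 such genes 2 rose and 3 did not pass. GADD45GIP1, a large-subunit protein also known for binding GADD45 proteins, had 59.93 and 58.19 FPKM in the Controls and 82.04 and 73.39 FPKM after knockdown (log2 fold change 0.39, adjusted p = 0.0030). CHCHD1, a small-subunit protein, had 22.98 and 27.00 FPKM in the Controls and 31.96 and 28.90 FPKM after knockdown (log2 fold change 0.28, adjusted p = 0.044), a call lost in 10 of the 17 alternative fits. AURKAIP1, a small-subunit protein close to MRPS12 in level, had 149.65 and 143.47 FPKM in the Controls and 158.51 and 155.21 FPKM after knockdown and did not pass (adjusted p = 0.22). DAP3, a GTP-binding small-subunit protein, had 48.55 and 51.23 FPKM in the Controls and 56.46 and 55.60 FPKM after knockdown (adjusted p = 0.066). PTCD3 overlapped, at 10.52 and 11.98 FPKM in the Controls and 12.17 and 11.90 FPKM after knockdown.

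For FPKM as deposited, the genes that build and serve the mitochondrial ribosome had a share of rises nearer to that of all genes. Of all genes 24.0% rose and 13.1% fell. Of 26 assembly and rRNA modification genes, 5 rose (19.2%) and 2 fell (7.7%), with a median log2 fold change of 0.09. MRM2, a methyltransferase of the mitochondrial large-subunit rRNA, rose from 13.02 and 13.17 FPKM in Control to 17.75 and 19.22 FPKM in siSIRT1 (adjusted p = 0.0026). METTL17, needed for small-subunit assembly, rose from 12.14 and 13.83 FPKM to 16.26 and 16.80 FPKM (adjusted p = 0.020). The GTPases MTG2 and NOA1, which act in large- and small-subunit assembly, fell from 21.44 and 23.15 FPKM to 19.42 and 16.21 FPKM (adjusted p = 0.034) and from 13.97 and 13.36 FPKM to 11.21 and 10.42 FPKM (adjusted p = 0.023). The calls of MTG2 and NOA1 were lost without Control-1, without Control-2 and without siSIRT1-2, and that of METTL17 in 7 of the 17 alternative fits, among them without Control-1 and without siSIRT1-2.

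Of 16 mitochondrial translation factors 3 rose (18.8%) and 0 fell, beside 24.0% and 13.1% of all genes, with a median log2 fold change of 0.10. MTRF1L, a release factor, had 5.32 and 5.37 FPKM in the Controls and 6.76 and 7.17 FPKM after knockdown (adjusted p = 0.037), and TACO1, an activator of COX1 translation, had 10.85 and 10.90 FPKM in the Controls and 12.67 and 14.08 FPKM after knockdown (adjusted p = 0.042). The calls were lost in 7 and 12 of the 17 alternative fits, for both without Control-1, without Control-2 and without siSIRT1-2. Of 20 genes that charge mitochondrial transfer RNA, 4 rose and 1 fell, with a median of 0.04. CARS2 and VARS2, the cysteinyl and valyl synthetases, rose from 16.95 and 15.29 FPKM to 24.27 and 21.60 FPKM (adjusted p = 0.0034) and from 15.47 and 15.75 FPKM to 21.97 and 21.61 FPKM (adjusted p = 0.0017). IARS2, the isoleucyl synthetase, fell from 44.25 and 46.06 FPKM to 36.20 and 38.20 FPKM (adjusted p = 0.011), a call lost without Control-1 or without Control-2.

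Of 9 mitochondrial transcription and control genes tested, of 10 listed, 3 rose (33.3%) and 0 fell, beside 24.0% and 13.1% of all genes. TFB2M, a mitochondrial transcription initiation factor, had 6.65 and 4.95 FPKM in the Controls and 9.15 and 8.10 FPKM after knockdown (log2 fold change 0.51, adjusted p = 0.019), a call lost without Control-2, without siSIRT1-1 and with no filter on low values. PPARGC1B, a coactivator of the PGC-1 family, was low, at 1.06 and 1.13 FPKM in the Controls and 1.68 and 2.03 FPKM after knockdown (adjusted p = 0.036), and its call was lost in 8 of the 17 alternative fits, among them a filter of 5 FPKM that it did not reach and the fits without Control-1, without Control-2 and without siSIRT1-2. Over these 5 lists together 17 of 76 genes tested rose (22.4%, beside 24.0% of all genes) and 3 fell. That total of 20 calls fell to 10 with median-of-ratios scaling, to 5 without Control-1 and to 6 without Control-2.

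**Figure D4:**
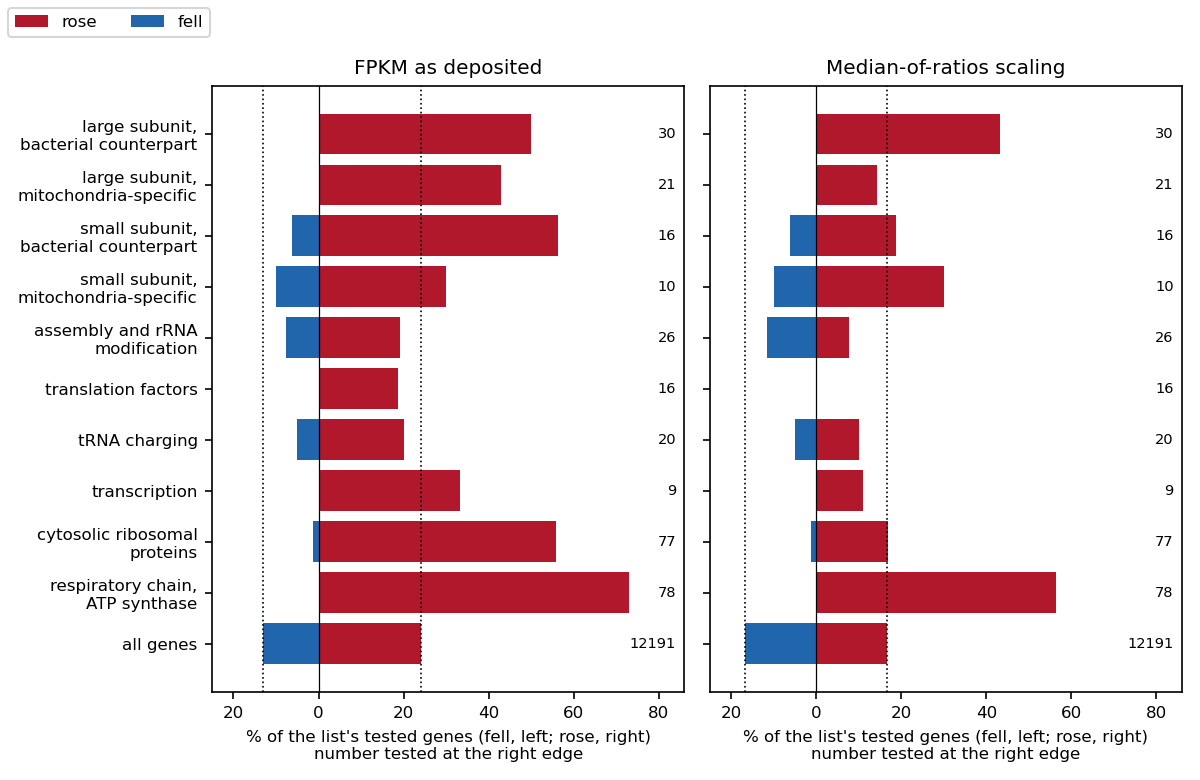
Percentage of each list's tested genes that rose (right) or fell (left) at an adjusted p of 0.05, for FPKM as deposited and with median-of-ratios scaling, with the number tested at the right edge and dotted lines at the shares over all genes. All 4 MRP role groups exceed the share of rises of all genes for FPKM as deposited (24.0%), and with median-of-ratios scaling (16.7%) the mitochondria-specific large-subunit group does not.

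Families with related roles were set beside the MRP genes as a description, since all comparisons share the same libraries. Of 77 cytosolic ribosomal protein genes 43 rose and 1 fell, with a median log2 fold change of 0.22. Which family had more calls turned with the setting. With median-of-ratios scaling 13 of these 77 rose beside 22 of 78 MRP genes, with 16.7% of all genes called higher. With equal FPKM sums the counts were 44 and 26, with quantile normalization 45 and 23, and with the length trend removed 33 and 33. Of all genes 18.9%, 18.7% and 27.0% were called higher in these 3 fits. Which family had more also turned with the library left out, with more MRP genes without Control-2 and more cytosolic genes without siSIRT1-2. The MRP sum was 5.79% and 5.98% of the cytosolic ribosomal protein sum in Control and 6.04% and 6.17% in siSIRT1. Of 78 nuclear respiratory chain and ATP synthase genes tested, 57 rose and 0 fell, with a median of 0.37, and 44 rose with median-of-ratios scaling. These genes held 1.65% and 1.64% of all FPKM in Control and 2.11% and 2.02% in siSIRT1. The differences between the families were not tested.

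MRP transcripts were short, with a median length of 1242 bases beside 3281 bases for all genes tested, and their median GC content was 48.2% beside 49.1%. Across the 78 genes the log2 fold change was weakly related to log2 length (Pearson r = -0.21), to GC content (r = 0.11) and to log2 Control level (r = -0.06), all of them across genes that share the same libraries. With each library's trend on transcript length removed, 33 MRP genes rose and 5 fell, against 27.0% of all genes called higher and 14.7% called lower. The genes lie on 21 chromosomes. Of the 78 genes 36 have annotated pseudogenes and 26 overlap an exon of another gene, 13 on the same strand and 16 on the other, and how reads shared with such copies or neighbours were assigned is not given in the sources used here.

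A feature that the choice of genes did not use was their position next to a gene read in the opposite direction. In 26 of the 78 MRP genes (33.3%) another tested gene started within 1000 bases upstream on the other strand, beside 1509 of 12090 tested genes (12.5%). Of these 26 neighbours 8 rose, or 30.8%, beside 24.0% of all genes called higher, 0 fell and 18 did not pass. Of the 15 MRP genes with a neighbour that rose themselves, 4 had a neighbour that also rose, and across the 24 pairs whose neighbour is no MRP gene the changes were hardly related (Pearson r = 0.08, a description across genes of the same libraries). The neighbours named here were chosen after their values were seen. MRPS12 starts 181 bases from SARS2, the mitochondrial seryl-tRNA synthetase, which had 65.76 and 63.64 FPKM in the Controls and 63.76 and 60.18 FPKM after knockdown and did not pass. MRPL32 starts 202 bases from the proteasome gene PSMA2, which rose from 38.78 and 32.35 FPKM to 47.98 and 47.02 FPKM. MRPS11 and MRPL46, which start 320 bases apart, are both MRP genes and each other's neighbour, so the 26 genes form 25 distinct pairs. MRPS11 rose from 16.24 and 14.97 FPKM to 23.71 and 20.19 FPKM, and MRPL46, at a log2 fold change of 0.25, did not pass (adjusted p = 0.083). The largest change of a neighbour was that of PIERCE1, 813 bases from MRPS2, from 2.51 and 2.31 FPKM to 6.37 and 6.69 FPKM.

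**Figure D5:**
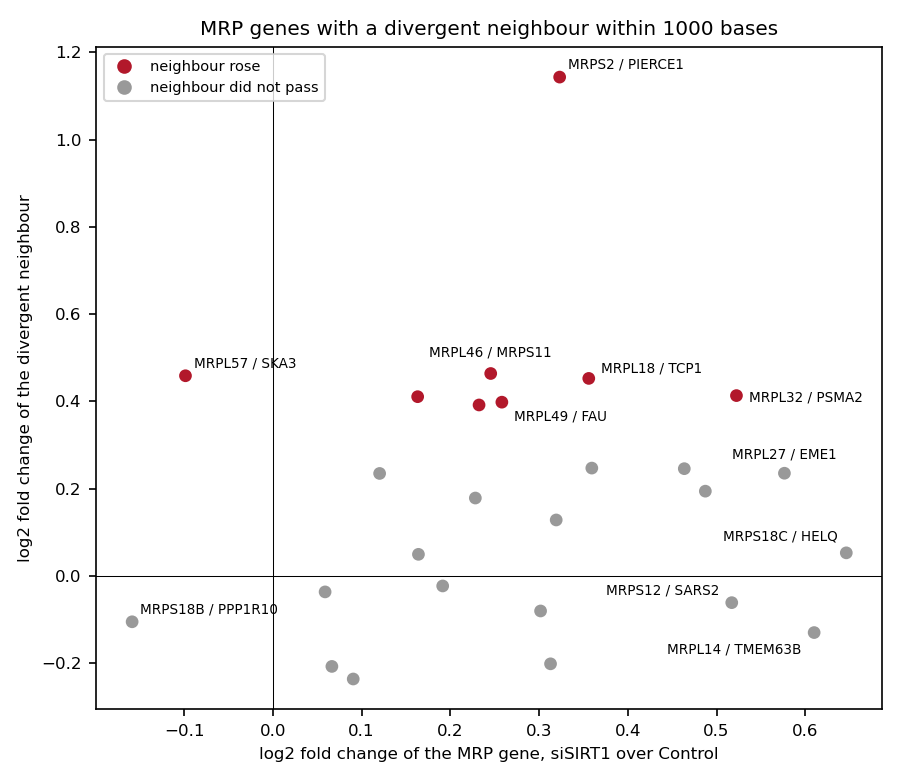
Log2 fold change of 26 MRP genes (x axis) and of the gene that starts within 1000 bases on the other strand (y axis), each siSIRT1 over Control, coloured by whether the neighbour rose. The pair of MRPS11 and MRPL46 is plotted from both sides, and the other 24 points show no common line (r = 0.08), with MRPS12 and MRPL14 at the right beside neighbours near 0.

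Promoter sequences (RefSeq, GRCh38.p14, 250 bases before to 50 bases after the start) were found for 70 of the 78 genes. Short letter strings known from binding sites were searched on both strands, and a match describes the letters only. The ETS site CCGGAAG was in 29 of 70 MRP promoters (41.4%) and in 19.9% of the promoters of 9984 tested genes. The YY1 site AAGATGG was in 23 (32.9%) and in 7.67%. The NRF1 core GCATGCGC was in 6 (8.57%) and in 5.64%, and the GC box GGGCGGG in 35 of 70 and in 55.1%. No string contains another, and these shares are descriptions with no test. Among MRP genes 12 of 29 with the ETS site rose and 21 of 41 without it, 10 of 23 with the YY1 site and 23 of 47 without it, 2 of 6 with the NRF1 core and 31 of 64 without it, and 18 of 35 with the GC box and 15 of 35 without it.

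The promoters of 5 genes are shown because they pair genes that rose with a gene that fell and hold each of the 4 strings. Capitals mark the matches, on either strand, and each sequence is written 5′ to 3′ on the strand of its gene. MRPS12 (chr19:38930694-38930993, plus strand), the most abundant gene, MRPL32 (chr7:42932126-42932425, plus strand), MRPL27 (chr17:50373135-50373434, minus strand) and MRPL11 (chr11:66438799-66439098, minus strand) rose, and MRPS10 (chr6:42217812-42218111, minus strand) fell.
MRPS12: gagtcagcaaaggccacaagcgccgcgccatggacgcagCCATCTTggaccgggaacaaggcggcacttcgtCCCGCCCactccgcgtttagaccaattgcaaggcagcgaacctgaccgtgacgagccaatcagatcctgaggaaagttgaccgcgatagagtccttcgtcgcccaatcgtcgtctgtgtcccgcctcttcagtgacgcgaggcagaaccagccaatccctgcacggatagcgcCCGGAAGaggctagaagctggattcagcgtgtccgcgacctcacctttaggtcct
MRPL32: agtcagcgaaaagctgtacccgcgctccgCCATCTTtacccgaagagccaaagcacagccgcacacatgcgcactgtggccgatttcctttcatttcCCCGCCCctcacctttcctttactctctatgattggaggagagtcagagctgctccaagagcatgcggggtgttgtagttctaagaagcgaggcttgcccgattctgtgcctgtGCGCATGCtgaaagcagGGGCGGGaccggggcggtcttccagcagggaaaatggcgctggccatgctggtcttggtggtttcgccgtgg
MRPL27: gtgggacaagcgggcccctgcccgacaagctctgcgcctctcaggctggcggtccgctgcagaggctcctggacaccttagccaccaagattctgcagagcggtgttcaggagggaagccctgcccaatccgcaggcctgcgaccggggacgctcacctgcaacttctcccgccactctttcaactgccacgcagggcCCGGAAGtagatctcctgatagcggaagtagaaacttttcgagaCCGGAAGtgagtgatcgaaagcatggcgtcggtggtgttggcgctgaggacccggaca
MRPL11: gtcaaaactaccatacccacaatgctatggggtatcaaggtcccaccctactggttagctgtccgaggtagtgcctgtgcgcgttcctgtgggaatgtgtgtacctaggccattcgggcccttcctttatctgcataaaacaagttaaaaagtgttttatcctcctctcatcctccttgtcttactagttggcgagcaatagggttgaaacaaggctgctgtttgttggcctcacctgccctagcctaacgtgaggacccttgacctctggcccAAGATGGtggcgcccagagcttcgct
MRPS10: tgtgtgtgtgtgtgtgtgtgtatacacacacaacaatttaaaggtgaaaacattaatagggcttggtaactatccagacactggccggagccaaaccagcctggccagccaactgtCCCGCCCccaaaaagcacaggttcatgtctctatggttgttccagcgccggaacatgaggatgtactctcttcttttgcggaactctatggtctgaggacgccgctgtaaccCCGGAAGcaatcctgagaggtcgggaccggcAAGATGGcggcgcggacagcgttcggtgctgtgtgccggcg
The promoters of MRPS12, which rose, and of MRPS10, which fell, both hold an ETS site, a YY1 site and a GC box. The YY1 site begins at base 10 in MRPS10 and at base 25 in MRPL11, counted from 1 at the first transcribed base, whereas in MRPS12 it lies on the other strand, 211 bases before the start. MRPL27 holds the ETS site at 2 positions, 52 and 8 bases before the start. MRPL32 holds the NRF1 core 39 bases before the start, with GC boxes on either side of it.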

How the data were processed

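The authors deposited a table of FPKM values, rounded to 2 decimals, for each of 4 PANC-1 libraries (2 Control, 2 siSIRT1), and the submitters' processing notes name HISAT, Bowtie2 and RSEM without roles or versions. The genome build, the counting settings and whether strand was used are not given in the sources used here. The tables hold no counts, so reads behind a value were estimated and are approximate.

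Symbols were matched to the pattern MRPL or MRPS plus a number. The 12191 genes whose mean reached 1 FPKM were fitted as log2(FPKM + 1) with limma 3.58.1 (R 4.3.3, functions lmFit and eBayes, trend on), two-sided, with Benjamini-Hochberg adjustment over all of them and a threshold of 0.05. A fold change on this scale understates the change of low genes. Alternatives were a pseudocount of 0.1, no filter or a filter at 5 FPKM, 4 other scalings, no trend, removal of length or GC trends (lowess span 0.3), the replicate number as a block, and leaving out each library. Where 1 library of a group was left out, the remaining library was assumed to vary like the other group. The fit was tested on simulated data.

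Named genes were SIRT1, the 8 largest rises and falls among called MRP genes without overlap, the 4 highest and 4 lowest by Control level, the S18 paralogs, MRPS30, MRPS36, the inherited deficiency genes, up to 2 largest rises and 2 largest falls of each other list, and ribosome proteins under other names. The members and lists were chosen with earlier results of these data known. Lengths, GC content and distances between genes came from canonical transcripts of GENCODE release 44 on GRCh37, and promoters from RefSeq on GRCh38.p14. The study's own fold and p thresholds were not used for calls.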

Additional observations from a re-analysis of the deposited data

How the results depend on the processing

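Depth, estimated only approximately, and 2 libraries per group limit what small changes can be called. The number of MRP genes called, 38, was 24 with median-of-ratios scaling and ran from 20 (without Control-2) to 38 when 1 library was left out. The number that rose, 36, was 22 with median-of-ratios scaling and 23 with quantile normalization, and ran from 20 (without Control-2) to 37. The number that fell, 2, was 0 with no filter on low values, 5 with the length trend removed (also 5 with the replicate block) and 1 with the GC trend removed, and ran from 0 to 4 when 1 library was left out. With no filter on low values 27 MRP genes rose, and without the mean-variance trend 26 rose. With the replicate block 47 MRP genes were called, 45 of them higher. Of all genes 28.6% were called higher and 15.7% lower with the block, beside 24.0% and 13.1% without it. Calls thus increased over all genes as well. With quantile normalization 18.7% of all genes were called higher, and with the length trend removed 14.7% were called lower. Same-numbered libraries share only a number, and their deviations correlated at 0.123 over 12191 genes. The median log2 fold change, 0.22, was 0.14 with median-of-ratios scaling, 0.15 with upper-quartile scaling, 0.16 with equal FPKM sums, 0.15 with quantile normalization and 0.18 with the length trend removed, with or without the replicate block, and ran from 0.21 to 0.26 when 1 library was left out. Calls in the other mitochondrial translation lists, 20, were 8 with no filter, 10 with median-of-ratios or upper-quartile scaling, 9 with equal FPKM sums, 12 with quantile normalization and 13 without the mean-variance trend, but 28 with the replicate block, 23 with the GC trend removed, 22 with the length trend removed and 26 with either trend and the block, and ran from 5 to 18 when 1 library was left out. The sign of some small changes turned. MRPS14 (0.04) was at -0.029 with median-of-ratios scaling, -0.024 with upper-quartile scaling, -0.011 with equal FPKM sums and -0.0049 with quantile normalization, and ran from -0.060 to 0.15 when 1 library was left out. MRPS28 (0.01) was at -0.072 with median-of-ratios scaling, -0.066 with upper-quartile scaling, -0.051 with equal FPKM sums, -0.063 with quantile normalization and -0.13 with the length trend removed, with or without the block, and ran from -0.095 to 0.11. MRPS30 (0.08) ran from -0.047 to 0.21 when 1 library was left out, and AURKAIP1 (0.10) was at -0.048 with the length trend removed, with or without the block. The causes were not tested.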
